A study of Mus musculus with 7 samples.

Results

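Igf2bp3 and 7 genes known with it from fetal and neonatal blood formation were followed in activated mouse B cells with and without an intact Med1 gene. The members are Igf2bp1, Igf2bp2, Igf2bp3, Lin28a, Lin28b, Hmga1, Hmga2 and Arid3a, which were taken by name from the deposited expression table and make up 8 of its 46959 features. They were chosen by their known roles with the measured genotype differences of these same libraries in view, so those differences between genotypes are given as a description, with per-library values and errors and without a p-value. RNA was measured in B cells purified from mouse spleen and cultured for 4 days with LPS (lipopolysaccharide, a bacterial activator of B cells) at 1 µg/mL and IL-4 (a cytokine that steers class switching) at 20 ng/mL. The knockout cells were labelled cKO MED1 (n = 4), a conditional knockout of Med1, a subunit of the Mediator complex that links enhancers to RNA polymerase II, and it was set against wild-type cells (n = 3) cultured the same way. The Cre driver, the floxed allele, the strain, the age of the mice and whether each replicate came from its own mouse are stated nowhere in the labels, so errors measure the spread between these libraries, which may be technical.

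LIN28A and LIN28B are RNA-binding proteins that block the maturation of let-7, a family of microRNAs that silences transcripts through short sites in their 3′ untranslated regions (3′UTRs). The proteins encoded by Igf2bp1, Igf2bp2 and Igf2bp3 bind and stabilise messenger RNAs, HMGA1 and HMGA2 are chromatin proteins that bind AT-rich DNA, and ARID3A (Bright) is a transcription factor of B cells first described at the immunoglobulin heavy chain locus. In mice, LIN28B, IGF2BP3 and ARID3A are known for a fetal type of B lymphopoiesis that yields B-1 cells, while let-7 is high in adult blood formation, and Hmga2, Igf2bp1 and Lin28b are among the best studied let-7 targets.

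The let-7 seed is the sequence that ties the members together. Bases 2 to 8 of a microRNA form its seed, and 11 mature mouse microRNA names in the RefSeq table (GRCm38.p6) carry GAGGUAG there. A selection of 4 is shown, 5′ to 3′, with the seed in capitals, to show how close they are outside it as well.
let-7a-5p (Mirlet7a-1, chr13:48538239-48538260, minus strand): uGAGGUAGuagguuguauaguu
let-7g-5p (Mirlet7g, chr9:106178846-106178867, plus strand): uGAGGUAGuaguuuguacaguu
let-7i-5p (Mirlet7i, chr10:122985698-122985719, minus strand): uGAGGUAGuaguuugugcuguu
miR-98-5p (Mir98, chrX:151913229-151913250, plus strand): uGAGGUAGuaaguuguauuguu

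The reverse complement of this seed, CTACCTC, was searched on the transcript strand of the longest GENCODE M21 3′UTR of each gene (GRCm38). All 8 members held at least 1 copy, whereas 1897 of 21020 genes (9.02%) did. Because reports of let-7 targeting are part of why these genes are known together, that count describes the set and is not a finding about it. Hmga2, Igf2bp1 and Lin28b held 4 copies each, a number reached by 12 of all genes (0.0571%). Lin28a and Arid3a held 2 copies each, and Igf2bp2, Igf2bp3 and Hmga1 held 1 copy each. UTR length matters for such counts. Among genes with a 3′UTR within 20% of the length of that of Igf2bp3 (2119 bases), 13.3% held at least 1 copy. At the lengths of Hmga2 (3014 bases), Igf2bp1 (6337 bases) and Lin28b (4445 bases), 0.134%, 0.355% and 0.236% held 4 copies or more. Each of these shares counts the member itself. Since these genes are known as let-7 targets, their copy numbers too are a description and not a finding. The site nearest the stop codon of each member is shown with 11 bases before and 11 after it, on the transcript strand and with the seed match in capitals.
Igf2bp1 (chr11:95961768-95961796, minus strand): tgcgaagtaaaCTACCTCaaggtgtgaag
Igf2bp2 (chr16:22059463-22059491, minus strand): acaaataaaagCTACCTCaggtgtttttt
Igf2bp3 (chr6:49086777-49086805, minus strand): tttttactcaaCTACCTCaggtattcagt
Lin28a (chr4:134005179-134005207, minus strand): agcctgttgaaCTACCTCatttttgccga
Lin28b (chr10:45381012-45381040, minus strand): gggcgggaagtCTACCTCatgcaagcaca
Hmga1 (chr17:27563281-27563309, plus strand): ctgttcacaaaCTACCTCtggacggttgt
Hmga2 (chr10:120364214-120364242, minus strand): acattcaatttCTACCTCagcatcagttg
Arid3a (chr10:79953899-79953927, plus strand): caagtttctttCTACCTCaggtcttttga

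In every printed site but that of Hmga1, the base after the match is an a, which lies opposite the first base of let-7. Where a member held several copies, that base followed 3 of 4 in Igf2bp1, 2 of 2 in Lin28a, 1 of 2 in Arid3a and 1 of 4 each in Lin28b and Hmga2. A match of 7 letters is a description of these sequences and shows no binding. Mature let-7 itself is not measured by libraries of this kind, in which short RNAs are not kept.

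Some facts of the libraries touch the values below. Recovered reads ran from 31937372 to 49603193 in cKO MED1 and from 54736580 to 61149274 in wild type, so that depth and genotype cannot be told apart. The Y-linked gene Ddx3y had 4470 normalised reads in cKO MED1 replicate 3, against 4496 to 4895 in wild type. In cKO MED1 replicates 1, 2 and 4 it had at most 4.07. Replicate 3 is therefore the 1 knockout library that matches the wild type in sex, and sex and genotype can hardly be told apart. A fit with sex as a covariate takes the genotype difference from that library alone against wild type. Reads from genes that B cells do not use, the olfactory and vomeronasal receptors (1816 genes, 5830 kb of exon), amounted to 0.240, 0.335, 0.612 and 1.04 normalised reads per kb in cKO MED1 replicates 1 to 4, against 0.117, 0.245 and 0.198 in wild-type replicates 1 to 3. Transcripts of defining B cell genes were abundant in all 7 libraries, with Cd79a, part of the B cell receptor, at 7671 ± 728 normalised reads in cKO MED1 (SD, n = 4) and 14110 ± 1026 in wild type (SD, n = 3). Med1 itself averaged 2361 ± 186 normalised reads (SD, n = 4) in cKO MED1 and 4380 ± 326 (SD, n = 3) in wild type, which leaves 53.9% of the wild-type level (log2 fold change −0.89, SE 0.09, adjusted p = 0.000174, limma). Reads were counted per gene and the floxed allele is not stated, so how much intact Med1 transcript remained cannot be told. Normalised reads are whole reads recovered from the deposited values and scaled to an effective library of 48080599 reads.

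Among the 6 members with enough reads to test, Igf2bp3 had the largest log2 difference between the genotypes. It had 66.4, 64.3, 67.2 and 78.7 normalised reads in cKO MED1 replicates 1 to 4, against 343, 283 and 340 in wild-type replicates 1 to 3. Every cKO MED1 library lay far below every wild-type library, and the 4 cKO MED1 values lay close together. The means were 69.1 ± 6.48 (SD, n = 4) in cKO MED1 and 322 ± 33.7 (SD, n = 3) in wild type, so that 21.5% of the wild-type level was left. On the log2(normalised reads + 1) scale the difference, cKO MED1 minus wild type, was −2.20 with an SE of 0.14, the fall ranked 25 in size among all genes called lower. These values rest on 49, 66, 51 and 43 whole reads in cKO MED1 and on 498, 347 and 426 in wild type. Replicate 3 of cKO MED1, the male library, had 67.2 normalised reads and so was as low as the others.

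The gene lies on the minus strand at chr6:49085223-49214957 (GRCm38), and its last 1529 bases overlap Malsu1, a mitochondrial ribosome assembly factor on the plus strand. The library kit keeps strand, but the labels do not say whether the counting used it, and reads from the shared stretch cannot be told apart. Malsu1 averaged 590 ± 83.0 normalised reads in cKO MED1 (SD, n = 4) and 525 ± 24.9 in wild type (SD, n = 3), with a log2 fold change of 0.16 (SE 0.12, adjusted p = 0.333, limma).

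**Figure D1:**
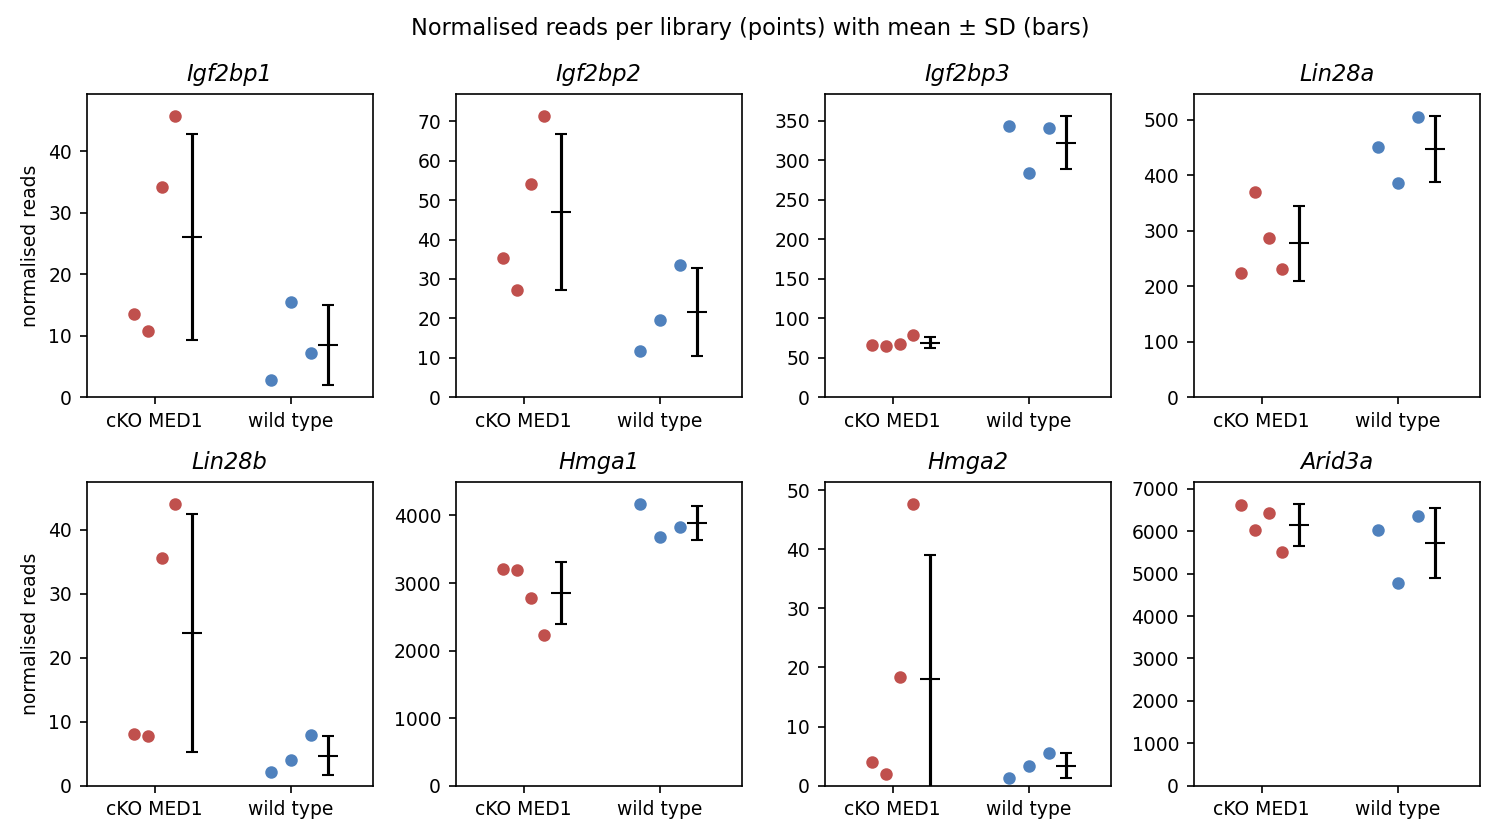
Normalised reads of each member (linear axis from 0) in the 4 cKO MED1 libraries (red) and the 3 wild-type libraries (blue), with bars for mean ± SD; the lower bar of Hmga2 in cKO MED1 is cut at 0. Igf2bp3, Lin28a and Hmga1 show no overlap between genotypes, whereas the 4 members with few reads spread widely within cKO MED1.

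The other IGF2BP genes did not share this direction. Igf2bp1, which lies at chr11:95957163-96005940 on the minus strand and is the family member best known from the embryo, had 13.6, 10.7, 34.2 and 45.8 normalised reads in cKO MED1, against 2.75, 15.5 and 7.19 in wild type. The groups overlapped, and replicates 3 and 4 of cKO MED1 were the high ones. Igf2bp2, the member that persists in adult tissues (chr16:22059009-22163299, minus strand), had 35.2, 27.3, 54.0 and 71.4 normalised reads in cKO MED1, against 11.7, 19.6 and 33.5 in wild type. Its groups overlapped too, with the same pair of cKO MED1 libraries at the top. The log2 differences were 1.53 (SE 0.63) for Igf2bp1 and 1.11 (SE 0.41) for Igf2bp2, and neither passed the test across all genes. Both genes rest on few whole reads, from 4 to 26 per library for Igf2bp1 and from 17 to 42 for Igf2bp2.

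The reads of the silent receptors were also highest in replicates 3 and 4 of cKO MED1. Per kb of exon, Igf2bp1 stood at 5.83, 3.31, 5.78 and 4.54 times the receptor level of its own library in cKO MED1, against 2.43, 6.54 and 3.75 times in wild type. For Igf2bp2 the multiples ran from 9.27 to 19.8 in cKO MED1 and from 10.8 to 22.9 in wild type. As multiples of the receptor level the groups overlapped for both genes. With that level subtracted from each library, the log2 differences were 1.57 for Igf2bp1 and 1.09 for Igf2bp2, close to those without subtraction, and neither passed the test. Igf2bp3 stood at 33.9, 23.6, 13.5 and 9.27 times the receptor level in cKO MED1, against 358, 142 and 210 times in wild type, and its log2 difference with the level subtracted was −2.29.

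The makeup of the family therefore differed by genotype. Of the summed reads per kb of the 3 genes, Igf2bp3 gave 56.9%, 62.2%, 43.2% and 40.2% in cKO MED1 replicates 1 to 4, against 95.7%, 89.1% and 88.8% in wild type. The mean share was 50.6 ± 10.6% (SD, n = 4) in cKO MED1 and 91.2 ± 3.94% (SD, n = 3) in wild type. Igf2bp2 took most of the rest, with a mean share of 35.2% in cKO MED1 and 6.68% in wild type. In bulk RNA, a lower level in each cell and fewer cells that carry the transcript cannot be told apart, and this holds for every value here.

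**Figure D2:**
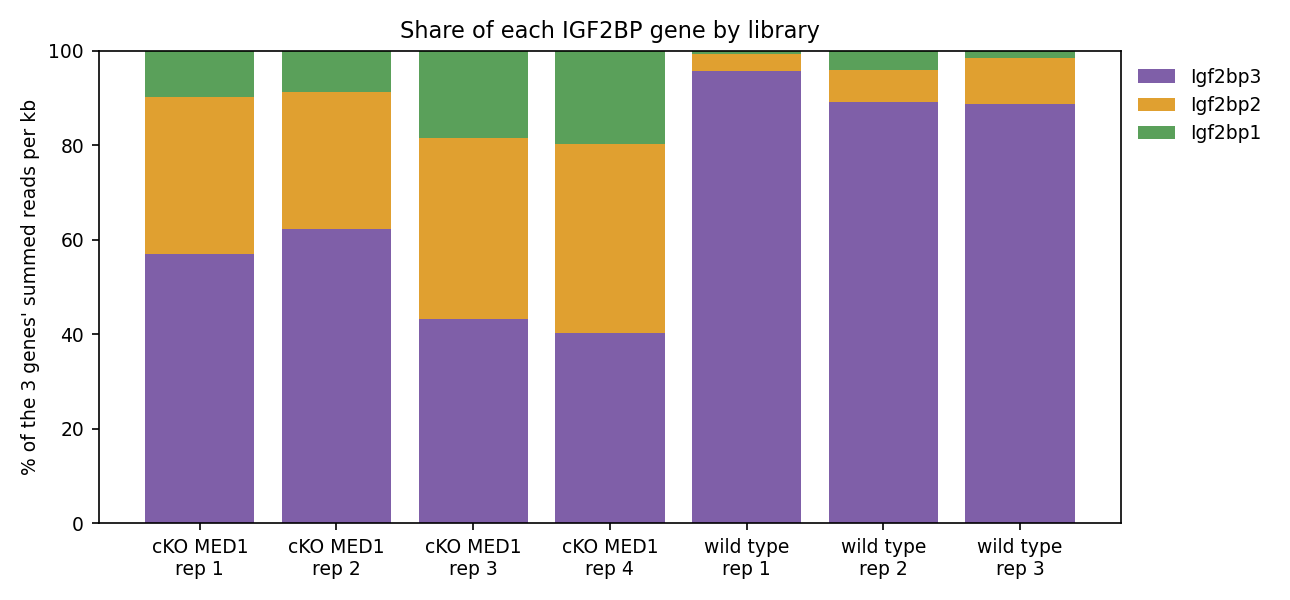
Share of each IGF2BP gene in the summed normalised reads per kb of exon of the 3 genes, 1 stacked bar per library with cKO MED1 at the left and wild type at the right. Igf2bp3 fills 88.8% to 95.7% of the wild-type bars and 40.2% to 62.2% of the cKO MED1 bars.

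Lin28a was the LIN28 gene that these cells transcribed. Lin28a (chr4:134003330-134018841, minus strand) had 224, 369, 287 and 231 normalised reads in cKO MED1 replicates 1 to 4, against 451, 387 and 505 in wild-type replicates 1 to 3. The groups did not overlap, although cKO MED1 replicate 2 came close to wild-type replicate 2. The means were 278 ± 67.5 (SD, n = 4) in cKO MED1 and 448 ± 59.4 (SD, n = 3) in wild type, or 62.0% of the wild-type level, and the log2 difference was −0.71 (SE 0.17). Whole reads numbered 126 to 379 per cKO MED1 library and 474 to 655 per wild-type library. The call was lost with sex as a covariate (−0.63) and without cKO MED1 replicates 3 and 4 (−0.62).

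The genes next to Lin28a were checked. The antisense transcript Gm13061 shares 695 bases with it on the other strand and had at most 1.83 normalised reads in any library. Dhdds, an enzyme of dolichol synthesis that lies downstream on the same strand and shares no bases with Lin28a, was abundant and also lower, at 1561 ± 148 normalised reads in cKO MED1 (SD, n = 4) and 1992 ± 118 in wild type (SD, n = 3), a log2 fold change of −0.35 (SE 0.10, adjusted p = 0.0229, limma).

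Lin28b, the paralogue known from fetal liver progenitors (chr10:45376620-45486395, minus strand), had 8.13, 7.80, 35.6 and 43.9 normalised reads in cKO MED1, against 2.07, 4.08 and 7.98 in wild type. It did not pass the filter on low counts and was not tested. The groups overlapped, and the 2 high values again came from replicates 3 and 4 of cKO MED1, the libraries with the most receptor reads. Per kb it stood at 2.57 to 6.41 times the receptor level in cKO MED1 and at 1.84 to 4.44 times in wild type. Lin28a made up 96.1 ± 3.20% of the summed reads per kb of both LIN28 genes in cKO MED1 (SD, n = 4) and 99.5 ± 0.245% in wild type (SD, n = 3).

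Hmga1 was the most abundant member and was modestly lower. Hmga1 (chr17:27556497-27563674, plus strand) had 3211, 3197, 2783 and 2225 normalised reads in cKO MED1, against 4163, 3681 and 3829 in wild type. No cKO MED1 library reached the lowest wild-type library, and cKO MED1 replicate 4 was the lowest of all. The means were 2854 ± 464 (SD, n = 4) in cKO MED1 and 3891 ± 247 (SD, n = 3) in wild type, 73.4% of the wild-type level, with a log2 difference of −0.46 (SE 0.13). The call was lost without cKO MED1 replicates 3 and 4, where the difference was −0.27, with sex as a covariate (−0.48) and without wild-type replicate 1 (−0.46). The last 102 bases of Hmga1 overlap AI413582 on the other strand, whose log2 fold change was 0.16 (SE 0.14, adjusted p = 0.412, limma).

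Hmga2, the paralogue known from fetal stem cells (chr10:120361275-120476469, minus strand), was close to the limit of what these libraries could show. It had 4.07, 1.95, 18.4 and 47.6 normalised reads in cKO MED1, against 1.38, 3.26 and 5.59 in wild type, and was not tested. These values stand for 3, 2, 14 and 26 whole reads in cKO MED1 and for 2, 4 and 7 in wild type. The groups overlapped, and in cKO MED1 replicate 2 the level per kb was 0.86 times that of the silent receptors. Replicate 4 of cKO MED1 was the highest, at 6.76 times the receptor level.

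Arid3a was abundant in both genotypes. Arid3a (chr10:79927043-79955018, plus strand) had 6614, 6023, 6423 and 5518 normalised reads in cKO MED1, against 6031, 4783 and 6347 in wild type. The groups overlapped, with wild-type replicate 2 the lowest library. The means were 6144 ± 485 (SD, n = 4) in cKO MED1 and 5720 ± 826 (SD, n = 3) in wild type, a log2 difference of 0.11 (SE 0.11). Its sign depended on the scaling: the difference was −0.02 with RLE or the authors' factors, −0.05 with TMM factors over all features, −0.13 with total reads and −0.07 without wild-type replicate 2.

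Across the members, 6 of 8 passed the filter on low counts and entered the test, and Lin28b and Hmga2 did not. Igf2bp3, Lin28a and Hmga1 were called lower, which makes 3 of 6, and none was called higher. Over all genes, 28.0% of the 18062 tested genes were called, 14.6% lower and 13.4% higher in cKO MED1, and in 19.8% the groups did not overlap with cKO MED1 lower (19.3% with cKO MED1 higher, 39.1% in either direction). Of the calls, 47.8% were higher, a share of 37.3% with RLE or the authors' factors, 31.9% with TMM factors over all features and 31.8% with total reads. Because the members were chosen with these results in view, nothing is read from their count. Level matters for the direction of calls across the table: with tested genes split by mean reads into 3 equal classes, 1298 of the lowest class were called higher and 56 lower, and of the highest class 337 were called higher and 1673 lower. Igf2bp1 and Igf2bp2 sat in the lowest class, Igf2bp3 and Lin28a in the middle class, where 784 genes were called higher and 917 lower, and Hmga1 and Arid3a in the highest.

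Levels can be compared between genes only per length, here as normalised reads per kb of exon. In cKO MED1 the mean levels were 1343 for Hmga1, 1105 for Arid3a, 69.5 for Lin28a, 8.48 for Igf2bp3 and 6.35 for Igf2bp2, and Igf2bp1, Hmga2 and Lin28b followed at 2.69, 2.66 and 2.63. In wild type they were 1831 for Hmga1, 1028 for Arid3a, 112 for Lin28a, 39.5 for Igf2bp3 and 2.92 for Igf2bp2, with 0.876 for Igf2bp1, 0.520 for Lin28b and 0.504 for Hmga2. The order was clear from Hmga1 down to Igf2bp2 in wild type, where each gene's libraries lay wholly above those of the next, and neighbours from Igf2bp2 downward overlapped. The steps below Igf2bp3 and Hmga1 were not clear in cKO MED1. There Igf2bp3 (7.88 to 9.65 per kb) overlapped Igf2bp2 (3.69 to 9.64), and Hmga1 (1047 to 1511) overlapped Arid3a (992 to 1189). Among 17272 tested genes with a length, the wild-type mean of Hmga1 stood at percentile 94.3, that of Arid3a at 90.1, Lin28a at 50.9 and Igf2bp3 at 37.0, while Hmga2 would have stood at 1.35.

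**Figure D3:**
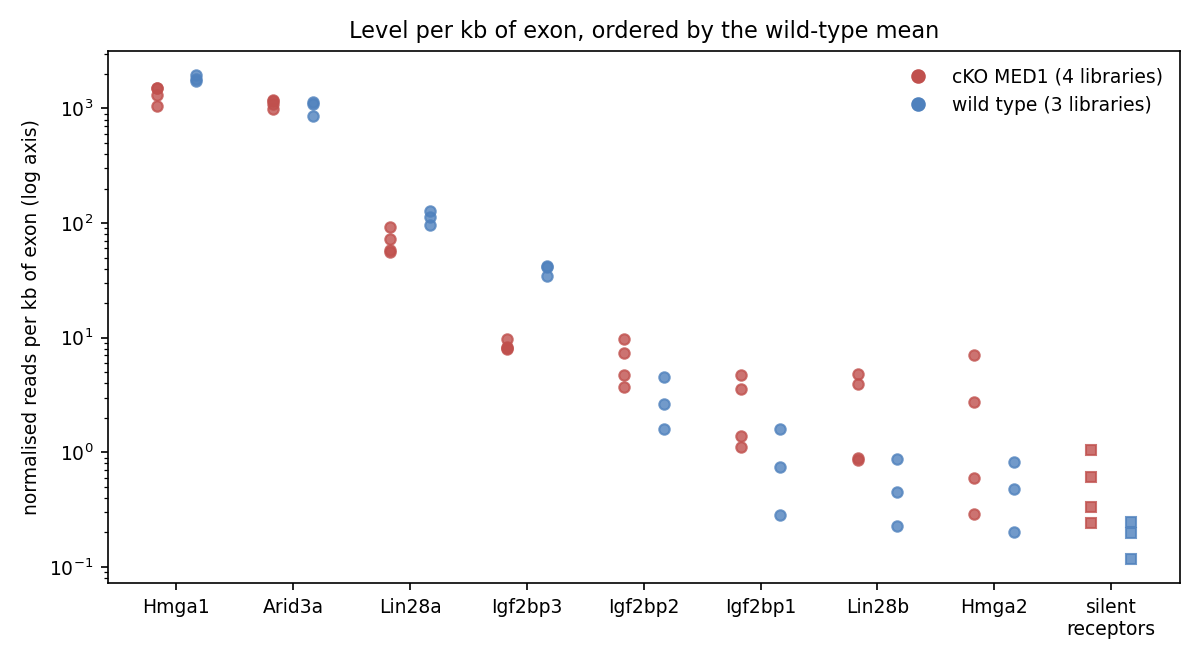
Normalised reads per kb of exon (log axis) of the 8 members, ordered by the wild-type mean, with the silent olfactory and vomeronasal receptors at the right; each point is a library, cKO MED1 in red to the left of wild type in blue. Igf2bp3 lies at 7.88 to 9.65 per kb in cKO MED1 and at 34.7 to 42.0 in wild type, and Igf2bp1, Lin28b and Hmga2 lie nearest to the receptor level.

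The start regions of Igf2bp3 and Lin28a are shown, from the RefSeq promoter table (GRCm38.p6), as those of the 2 members with the largest falls; Hmga1, also lower in every cKO MED1 library, is given by its motif count alone. Each runs from 250 bases before the annotated start to 30 after it, on the strand of the gene, with the letters CACGTG, the core of the E-box that MYC and MAX can bind, in capitals.
Igf2bp3 (chr6:49214925-49215204, minus strand): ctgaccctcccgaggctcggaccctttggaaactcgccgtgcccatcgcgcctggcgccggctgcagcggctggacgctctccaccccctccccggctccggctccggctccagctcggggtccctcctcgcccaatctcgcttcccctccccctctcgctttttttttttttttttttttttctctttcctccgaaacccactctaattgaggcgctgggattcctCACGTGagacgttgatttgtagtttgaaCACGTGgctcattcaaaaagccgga
Lin28a (chr4:134018787-134019066, minus strand): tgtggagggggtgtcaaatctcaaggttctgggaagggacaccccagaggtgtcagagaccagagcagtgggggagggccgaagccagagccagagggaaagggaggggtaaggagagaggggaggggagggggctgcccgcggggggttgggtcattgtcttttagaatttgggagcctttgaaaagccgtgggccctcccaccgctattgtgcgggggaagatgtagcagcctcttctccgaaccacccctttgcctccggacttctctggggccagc

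Igf2bp3 held CACGTG at 2 places, at chr6:49214972-49214977, whose first base is 23 before the start, and at chr6:49214944-49214949, just inside the transcript. The motif is its own reverse complement, so both strands read alike. In windows of 300 bases around all 32851 starts in that table, 7.15% held at least 1 copy and 0.594% held 2 or more. Lin28b held 1 copy in its window, and no copy was found in the windows of Lin28a, Igf2bp2, Hmga1 and Hmga2. A match describes these letters only and says nothing of a factor bound there.

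The other parts of the let-7 pathway were read from lists of known genes. Over the 10 lists used here 43 genes were called by limma, which became 14 without wild-type replicate 1, 22 without cKO MED1 replicates 3 and 4 and 5 with sex as a covariate. Of 13 let-7 precursor and host rows in the table, 5 could be tested and 0 were called by limma at adjusted p under 0.05, with 1, the host transcript Mir99ahg, at an unadjusted p under 0.05. The edgeR quasi-likelihood test called 0 of them and DESeq2 called 1. The precursor rows were nearly empty: Mirlet7a-1 had 9.78 normalised reads in cKO MED1 and 11.5 in wild type, and Mir98 had 17.7 in cKO MED1 and 9.39 in wild type. The genes whose introns hold let-7 precursors were abundant, with Huwe1 (host of Mir98) at 19960 ± 1778 in cKO MED1 and 19207 ± 1485 in wild type (adjusted p = 0.729, limma) and Wdr82 (host of Mirlet7g) at 3862 ± 393 in cKO MED1 and 4265 ± 231 in wild type (adjusted p = 0.264, limma).

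Among 23 tested genes of microRNA maturation and silencing, 2 rose and 5 fell, with a median log2 fold change of −0.09, beside 0.04 for all tested genes, and the 30.4% called is near the 28.0% of all tested genes. That overall median was −0.10 with RLE or the authors' factors, −0.12 with TMM factors over all features and −0.21 with total reads, and list medians moved down with it. The 2 that rose encode Argonaute proteins, which carry microRNAs: Ago4 by 0.73 (SE 0.12, adjusted p = 0.00319, limma) and Ago3 by 0.44 (SE 0.12, adjusted p = 0.0232, limma). The 5 that fell were Drosha and Dgcr8, which together cut primary transcripts, the exporter Xpo5, and Khsrp and Trim25, RNA-binding proteins known in let-7 processing. Dgcr8 fell by 0.42 on the log2 scale (SE 0.10, adjusted p = 0.0152, limma) and Khsrp fell by 0.43 (SE 0.13, adjusted p = 0.0297, limma).

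Of 23 tested genes reported as let-7 targets elsewhere, 1 rose and 3 fell, with a median of 0.02. The share called was 17.4%, beside 28.0% of all tested genes. Myc, the growth regulator, had 2145 ± 424 normalised reads in cKO MED1 (SD, n = 4) and 3475 ± 287 in wild type (SD, n = 3), and its log2 fold change was −0.71 (SE 0.14, adjusted p = 0.00591, limma). The cell cycle phosphatase gene Cdc25a fell by 0.43 (SE 0.10, adjusted p = 0.0122, limma) and Cdc34, a ubiquitin-conjugating enzyme of the cell cycle, fell by 0.56 (SE 0.13, adjusted p = 0.0136, limma). Prdm1, which encodes the plasma cell regulator Blimp-1, rose by 0.71 (SE 0.15, adjusted p = 0.00785, limma). The wider set of tested genes with the site CTACCTC in the 3′UTR, chosen after the values were seen, numbered 1440: 14.9% were called higher, 16.4% were called lower and the median log2 fold change was 0.01. Among 11978 tested genes without the site, 13.3% were called higher, 17.9% were called lower and the median was −0.02. The median 3′UTR was 2390.5 bases long with it and 1057.5 without it.

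Among 18 tested transcripts reported elsewhere as bound by IGF2BP proteins, 38.9% were called, beside 28.0% of all tested genes. There were 2 rises and 5 falls, with a median of −0.03. Those that fell were Myc, Bcl2, Pax5, Cd44 and Mki67. Bcl2, the survival factor, fell by 0.49 (SE 0.12, adjusted p = 0.0177, limma). Pax5, the B cell identity factor, fell by 0.37 (SE 0.10, adjusted p = 0.0246, limma), and Cd44, an adhesion receptor, fell by 0.38 (SE 0.11, adjusted p = 0.0319, limma). The pair that rose, Igf2 and Hoxa9, had few reads: Igf2, the growth factor for whose messenger RNA the family is named, had 5.42, 16.6, 26.3 and 47.6 normalised reads in cKO MED1, against 1.38, 4.90 and 4.79 in wild type (log2 fold change 2.18, SE 0.70, adjusted p = 0.0394, limma). Igf2, like Igf2bp1 and Igf2bp2, is in the class of lowest mean reads, where calls in the higher direction were most common. Along the insulin-like growth factor axis, counting Igf2 again, 10 genes were tested with a median of 0.33. All had a positive log2 fold change (9 with RLE factors and 6 with total reads), but Igf2 and Igf2r were the ones called. Igf2r, the receptor that clears IGF2, rose by 0.39 (SE 0.12, adjusted p = 0.0321, limma). The share called on the axis was 20.0%, beside 28.0% of all tested genes.

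N6-methyladenosine (m6A) is the RNA mark that IGF2BP proteins are reported to read. Of 22 tested genes that write, erase or read it, none rose and 6 fell, with a median of −0.18. The share called, all of it lower, was 27.3%. Of all tested genes 28.0% were called in either direction and 14.6% were called lower. In the class of highest mean reads 27.8% were called lower. A positive log2 fold change was seen in 2 of the 22 genes, and in 0 with RLE factors. Mettl16, a methyltransferase, fell by 0.68 (SE 0.12, adjusted p = 0.00399, limma) and Rbm15b, an adaptor of the writer complex, fell by 0.49 (SE 0.10, adjusted p = 0.00608, limma). Of the readers, Ythdf2 fell by 0.42 (SE 0.10, adjusted p = 0.0128, limma) and Fmr1 fell by 0.37 (SE 0.08, adjusted p = 0.0106, limma), and Ythdf1 and Elavl1 were the remaining 2.

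Of 11 other high mobility group genes tested, none rose and 4 fell, so that 36.4% were called, beside 28.0% of all tested genes and 27.8% called lower in the class of highest mean reads. Hmgn2 fell by 0.72 (SE 0.14, adjusted p = 0.0069, limma), Hmgn1 fell by 0.58 (SE 0.12, adjusted p = 0.0086, limma), Hmgb1 fell by 0.45 (SE 0.10, adjusted p = 0.0127, limma) and Hmgb2 fell by 0.39 (SE 0.11, adjusted p = 0.027, limma). The HMGN proteins bind nucleosomes and the HMGB proteins bend DNA. Many processed copies of these genes lie in the mouse genome, so their counts carry some uncertainty from how reads were shared out.

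Around Arid3a, 17 genes of the ARID family and of ARID3A's known partners were tested, of which 2 rose and 1 fell, with a median of 0.07. The share called was 17.6%, beside 28.0% of all tested genes. Arid5a, an RNA-binding member of the family that stabilises cytokine transcripts, rose by 0.60 (SE 0.13, adjusted p = 0.00868, limma) and Jarid2, a Polycomb partner, rose by 0.32 (SE 0.10, adjusted p = 0.0337, limma). Btk, the kinase known to act with ARID3A, fell by 0.36 (SE 0.09, adjusted p = 0.0161, limma).

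Early lymphoid and B-1 cell genes were examined because the members are known from those cells. Of 22 tested early lymphoid and progenitor genes 5 rose and 3 fell, with a median of 0.31. The share called was 36.4%, beside 28.0% of all tested genes, and the median was 0.18 with RLE factors and 0.08 with total reads. The cytokine receptor gene Flt3 rose by 0.65 (SE 0.14, adjusted p = 0.0104, limma), while the transcription factor genes Ikzf1 and Bcl11a fell by 0.46 (SE 0.09, adjusted p = 0.00676, limma) and fell by 0.38 (SE 0.10, adjusted p = 0.0199, limma). Rag1, the antigen receptor recombinase, rose by 2.26 (SE 0.62, adjusted p = 0.0237, limma), but from few reads, 18.2 ± 12.6 in cKO MED1 and 2.61 ± 1.07 in wild type.

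Of 16 tested genes known from B-1 cells 4 rose and 1 fell, with a median of 0.23. The 31.25% called is near the 28.0% of all tested genes, and the median was 0.10 with RLE factors and −0.01 with total reads. Cd300lf, an inhibitory receptor, rose by 1.57 (SE 0.18, adjusted p = 0.000346, limma) and Myof, a membrane repair protein, rose by 1.37 (SE 0.14, adjusted p = 0.000182, limma). The tetraspanin gene Cd9 rose by 1.02 (SE 0.15, adjusted p = 0.00143, limma) and the Fc receptor-like gene Fcrl5 rose by 0.90 (SE 0.10, adjusted p = 0.000296, limma). Spn (CD43) was the one that fell, to 1537 normalised reads in cKO MED1 against 2255 in wild type. The 4 that rose passed the threshold in each of the 22 alternative fits. Those fits reuse the same libraries, and the list was drawn up with earlier results of these data known, so they are no separate support.

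Transcripts of other cell types stood beside these changes as follows. The summed normalised reads of 8 B cell genes ran from 127519 to 144203 in cKO MED1 and from 179128 to 193439 in wild type, and 5 of the 8 were called lower. Those of 8 T cell genes ran from 136 to 282 in cKO MED1 and from 60.6 to 91.0 in wild type, with 1 called higher. Those of 7 neutrophil genes ran from 25.7 to 112 in cKO MED1 and from 7.57 to 21.2 in wild type, with 1 called higher. Sums of macrophage genes overlapped, at 144 to 322 in cKO MED1 and 145 to 320 in wild type, and so did those of erythroid genes, at 146 to 505 in cKO MED1 and 146 to 252 in wild type. Progenitor genes summed to 3041 to 3966 in cKO MED1 and 1927 to 2797 in wild type, mostly Flt3, and stromal and endothelial genes to 1075 to 1287 in cKO MED1 and 1411 to 1658 in wild type, mostly Pecam1. Cd3e, of T cells, had at most 9.15 normalised reads in cKO MED1 and at most 5.59 in wild type. S100a9, of neutrophils, had at most 7.32 in cKO MED1 and was at 0 in all 3 wild-type libraries. Other genes of these types had more reads, as the sums show. The part of any of these in the members' values was not tested.

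The genes most like Igf2bp3 were sought among 9810 genes by the root mean square difference of centred log2 values over the 7 libraries. The 5 nearest were Scn3a, a sodium channel subunit (0.158), B3gnt7, a glycosyltransferase (0.171), Rpl29, a ribosomal protein gene with many near-identical copies (0.191), Pde7b, a cyclic AMP phosphodiesterase (0.201), and Slfn8, a member of the Schlafen family (0.240). Their mean normalised reads in cKO MED1 were 20.4% to 24.2% of those in wild type, and the groups of none of them overlapped. Scn3a, for example, had 119, 121, 97.5 and 115 normalised reads in cKO MED1, against 461, 429 and 533 in wild type. Since likeness was measured on the same 7 libraries, a fall of the size of that of Igf2bp3 is what makes a gene near.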

How the data were processed

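Stranded total RNA libraries of 7 cultures were sequenced after removal of ribosomal RNA, per the labels' protocols. The authors deposited 1 table of a signal per gene, read counts divided by 1 size factor per library: whole reads were recovered by dividing each library by the value of 1 read, which gave whole numbers for 100.0% of entries (tolerance 1e-06). The submitters' processing notes name STAR 2.4.0a, featureCounts, Subread 1.5.0-p3 and DESeq2 with build GRCm38, with no strand setting. A phiX spike-in row (at most 0.000383% of reads) was left out. Total reads per library ran from 31937372 to 61149274, and counting error is only part of the spread, so SDs are given.

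The planned unit was counts. Because the deposited values were scaled, limma 3.58.1, run in R 4.3.3 with its trend option, was used on log2(normalised reads + 1), where normalised reads carry TMM factors (edgeR 4.0.16) over the 18062 genes kept by filterByExpr. Calls use a Benjamini-Hochberg adjusted p under 0.05 over all of them. The edgeR quasi-likelihood test on recovered reads called 5340 genes, limma 5065. Fold changes on this scale understate the change of genes with few reads. The fit was tested on simulated data. Positions and exon lengths come from GENCODE M21 by symbol, which placed 44039 features (93.8%). Sequences come from RefSeq tables and GENCODE transcripts.

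Members and lists were chosen with earlier results of these data known. Named genes are the members, Med1, up to 4 called genes with the smallest adjusted p per list (the 2 most abundant where none was called) and the 5 genes nearest to Igf2bp3, leaving out immunoglobulin and T cell receptor segments, predicted genes, pseudogenes and genes under 100 mean reads. Others were named after their values were seen. Some results are not reported here. Alternatives were RLE, total-read and the authors' factors, TMM over all features (chosen after seeing the data), no filter, CPM 1 in 3 libraries, pseudocounts of 5 and 0.5, edgeR, DESeq2 1.42.0, limma-voom, replicate number as a block, sex as a covariate, subtraction of the receptor level, a threshold of 0.01 and left-out libraries.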

Additional observations from a re-analysis of the deposited data

How the results depend on the processing

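Igf2bp3 was called lower in all 22 alternative fits, with log2 fold changes from −2.44 to −2.14. Lin28a was called in 20 of 22 (−0.95 to −0.61), not with sex as a covariate and not without cKO MED1 replicates 3 and 4. Hmga1 was called in 19 of 22 (−0.70 to −0.27), not in those fits and not without wild-type replicate 1. Igf2bp2 kept a positive sign (0.63 to 1.42) and was called in 5 of the 21 fits that held it, and Igf2bp1 (0.73 to 2.14) in 1 of 21. Arid3a was called in 0 of 22 and changed sign with the scaling (−0.13 to 0.18). All these fits reuse the libraries whose differences were in view when the members were chosen. They show how far the processing matters and lend the members no separate support.

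The number of members called, 3 as reported, was 5 with total reads, 1 with sex as a covariate, 1 without cKO MED1 replicates 3 and 4 and 1 at a threshold of 0.01; leaving out single libraries gave 2 to 4. Of the genes on the 10 lists 43 were called, against 5 with the sex covariate, 22 without cKO MED1 replicates 3 and 4 and 13 at 0.01, and 14 (without wild-type replicate 1) to 50 when single libraries were left out. Of all tested genes, 5065 were called, against 228 with the sex covariate, 2145 without cKO MED1 replicates 3 and 4 and 1307 at 0.01; single libraries left out gave 1556 (wild-type replicate 1) to 6125, with 2812 without cKO MED1 replicate 4. With sex as a covariate, the genotype difference rests on cKO MED1 replicate 3 alone against wild type. Its error is then larger, and fewer residual degrees of freedom remain. Left-out libraries leave fewer samples, and the highest count, 6125, came without cKO MED1 replicate 1. The causes of these changes were not tested. Among named list genes Igf2r and Jarid2 lost their calls in 11 of 22 alternatives each and Ago3 in 9 of 22, and each called list gene that the naming rule took kept its sign in all alternatives that held it.

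Nothing in the labels says that the replicate numbers pair the samples. Deviations of same-numbered libraries correlated at 0.51, −0.23 and 0.16, which does not decide it. With the replicate block 3741 genes, 35 list genes and 3 members were called, and Igf2bp3 was at −2.27. Depth limits Hmga2, Lin28b, Igf2bp1 and Igf2bp2 most, for which a library held as few as 2, 3, 4 and 17 whole reads.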

Other observations

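A pair of readings outside the members, chosen after their values were seen, stood out. Among erythroid genes the globins went in different directions: Hba-a1 had 35.6 to 198 normalised reads in cKO MED1 and 8.78 to 31.8 in wild type (log2 fold change 2.62, SE 0.60, adjusted p = 0.0117, limma), and Hbb-bt had 17.6 to 43.9 in cKO MED1 and 73.7 to 100.4 in wild type (−1.47, SE 0.29, adjusted p = 0.00674, limma). Xist, the RNA of the inactive X chromosome, had 40414, 36381 and 41073 normalised reads in cKO MED1 replicates 1, 2 and 4 and 48.7 in cKO MED1 replicate 3, against 59.2, 1241 and 11.2 in wild-type replicates 1 to 3, so that wild-type replicate 2 held more of it than the other wild-type libraries while its Ddx3y level was 4496.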
